A study of Mus musculus with 2 samples.

Results

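The alpha and beta tubulin isotypes are the separate genes that encode the 2 subunits of the microtubule. The 10 described here, 4 alpha (Tuba1a, Tuba1b, Tuba1c and Tuba4a) and 6 beta (Tubb2a, Tubb2b, Tubb3, Tubb4a, Tubb4b and Tubb5), were taken by symbol from 43346 genes, of which 42462 matched a symbol. They were measured in midbrain of healthy B6NCrl mouse embryos at 13.5 days, with male and female tissue pooled and no transgene or treatment named in the labels. The labels number 2 libraries as biological replicates 1 and 2 of this single group, each made from 10 ng of RNA extracted by mirVana, with spike-in RNA added and a low-input kit manual listed. Separate biosample entries are given, but both derive from 1 donor entry, so SDs and p-values measure only the spread between these samples. Levels are TPM, the deposited abundance per transcript length scaled to the same total in every library, given as mean ± SD over the libraries with n = 2 unless both values are printed.

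Alpha and beta tubulin bind as a heterodimer, and heterodimers join end to end into the microtubules that carry axonal transport, shape growth cones and form the mitotic spindle. The isotypes are alike over most of their length and differ mainly in a short acidic tail at the carboxyl end, where enzymes add glutamate chains and remove or restore the last tyrosine. Tuba1a, Tubb2b, Tubb3 and Tubb5 are known from human cortical malformations, and Tubb3 is the classical marker of neurons.

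The coding ends of Tuba4a and the beta isotypes below show what separates isotypes at the level of sequence. They are the last 60 coding bases (20 codons) before the stop codon, read from GENCODE M21 transcripts on GRCm38, 5′ to 3′ on the coding strand. Capitals mark GAA and GAG in frame, the codons of glutamate. Each transcript has 4 exons, all of them coding. For Tuba4a the transcript with the longest coding sequence was used, which was not its most abundant one.

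Tuba4a: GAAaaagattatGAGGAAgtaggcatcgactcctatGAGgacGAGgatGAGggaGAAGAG
Tubb3: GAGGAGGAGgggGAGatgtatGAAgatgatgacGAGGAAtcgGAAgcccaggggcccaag
Tubb5: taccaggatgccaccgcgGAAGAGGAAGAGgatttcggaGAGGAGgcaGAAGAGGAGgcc
Tubb2a: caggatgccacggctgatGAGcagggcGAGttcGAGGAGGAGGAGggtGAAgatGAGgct
Tubb2b: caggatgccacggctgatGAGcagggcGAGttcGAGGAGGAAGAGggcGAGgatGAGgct
Tubb4b: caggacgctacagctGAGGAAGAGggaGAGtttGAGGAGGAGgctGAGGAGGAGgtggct
Tubb4a: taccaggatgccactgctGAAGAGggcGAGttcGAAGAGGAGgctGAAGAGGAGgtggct

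These 7 tails were rich in glutamate codons, from 8 of 20 in Tuba4a, Tubb2a, Tubb2b and Tubb3 to 10 of 20 in Tubb4b. Tuba4a ended in GAG, a glutamate codon, and so lacked the last tyrosine of the tyrosination cycle. Tubb3 ended in AAG, a lysine codon. Its tail was 40% to 49.2% identical to those of the other beta isotypes, against 65.1% to 95% for the pairs that do not include it. Tubb3 has 450 codons before the stop and the other beta isotypes 444 or 445. Windows of 60 bases counted back from the stop therefore need not be in register, which can lower the identity. The tail of Tuba4a, of the other family, was 41.7% to 48.3% identical to the beta tails, near the values of Tubb3. Tubb2a and Tubb2b shared 95% of tail bases. Over the whole coding sequence, alpha pairs were 84.7% to 98.3% identical, beta pairs 81.2% to 96.5% and alpha with beta 52.3% to 55.1%.

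The coding starts are shown because tubulin RNA is degraded when free tubulin is in excess, through recognition of the first residues of the nascent protein. Capitals mark the 3 codons after the start codon.

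Tuba1a: atgCGTGAGTGC
Tuba4a: atgCGCGAGTGC
Tubb3: atgAGGGAGATC
Tubb5: atgAGGGAAATC

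Tuba1b and Tuba1c began with the same 12 bases as Tuba1a, and Tubb4b with the same as Tubb3.

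The midbrain held far more RNA of 1 alpha isotype than of any other tubulin gene, while its beta tubulin RNA was divided among several genes. Tuba1a, the alpha isotype of young neurons, made up 93.6% ± 0.21 of summed alpha TPM. The 3 leading beta isotypes, Tubb3, Tubb5 and Tubb2a, together made up 76.7% ± 0.62 of summed beta TPM, with Tubb3 the highest at 28.0% ± 0.17. Expressed as the number of equally abundant genes that would give the same concentration (the inverse Simpson index), the alpha family amounted to 1.14 ± 0.0047 genes and the beta family to 4.53 ± 0.040.

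Tuba1a (ENSMUSG00000072235; chromosome 15, 98949837 to 98953703, minus strand) stood at 14372 TPM in replicate 1 and 13821 in replicate 2. It ranked first among protein-coding genes in both libraries. Alone it held 1.52% of all gene TPM in replicate 1 and 1.53% in replicate 2.

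Tuba1b (ENSMUSG00000023004; chromosome 15, 98931425 to 98934565, minus strand), an alpha isotype of most cell types, stood at 923 and 932 TPM. Its share of alpha TPM was 6.02% in replicate 1 and 6.30% in replicate 2. It lay 15.2-fold below Tuba1a, a log2 difference of 3.93 with a standard error of 0.042 (limma, adjusted p = 1.43e-09). Both libraries placed it between Tuba1a and Tuba1c.

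Tuba1c (ENSMUSG00000043091; chromosome 15, 99029891 to 99038110, plus strand), also broadly expressed, stood at 28.6 and 29.0 TPM, or 0.186% and 0.196% of alpha TPM. It was 32.1-fold below Tuba1b (limma, adjusted p = 7.42e-15). The 3 Tuba1 genes lie within 107 kb of chromosome 15, so neighbouring members of 1 cluster ranged over a wide span of RNA levels.

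Tuba4a (ENSMUSG00000026202; chromosome 1, 75214228 to 75219865, minus strand), the isotype whose coding sequence lacks the last tyrosine, was lowest at 3.20 and 4.11 TPM. It made up 0.0209% and 0.0278% of alpha TPM (mean 0.0243%). The mean was 0.0154% in a setting added after the data were seen, which took 1 GENCODE M21 coding transcript as the length of each gene. For Tuba4a this put 2840 bases in place of deposited gene lengths of 1571 in replicate 1 and 1763 in replicate 2. That transcript has the same length in both annotations, so the shift reflects the transcript chosen. Tuba4a lay 7.75-fold below Tuba1c (limma, adjusted p = 4.68e-12), with log2 differences of 3.12 in replicate 1 and 2.79 in replicate 2.

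**Figure D1:**
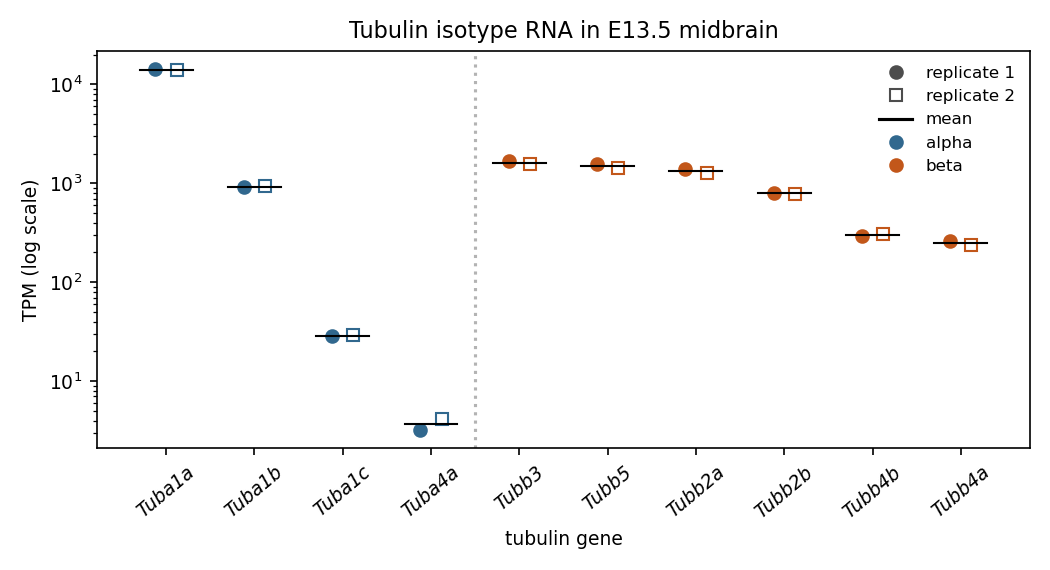
TPM of each isotype on a log scale, with replicate 1 as filled circles, replicate 2 as open squares and the mean as a bar, alpha isotypes on the left and beta isotypes on the right of the dotted line. The alpha genes run from 14096 TPM (Tuba1a) down to 3.66 TPM (Tuba4a), while the beta genes lie between 1618 TPM (Tubb3) and 252 TPM (Tubb4a).

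Tubb3 (ENSMUSG00000062380; chromosome 8, 123411424 to 123422015, plus strand), the neuronal beta isotype, led the beta family with 1679 TPM in replicate 1 and 1558 in replicate 2. It held 28.1% and 27.8% of beta TPM. Tubb5 (ENSMUSG00000001525; chromosome 17, 35833921 to 35838306, minus strand), known from dividing and neural progenitor cells, followed with 1551 and 1433 TPM, or 25.9% and 25.6%. The order was the same in both libraries but the step was small, 1.09-fold (log2 0.12, standard error 0.036; limma, adjusted p = 0.0166). It was not past the threshold when the spread was estimated without a trend over expression level (adjusted p = 0.153).

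Tubb2a (ENSMUSG00000058672; chromosome 13, 34074274 to 34078007, minus strand), a beta isotype abundant in brain, stood at 1383 and 1278 TPM, or 23.1% and 22.8% of beta TPM. Tubb5 exceeded it by 1.12-fold (log2 0.16, standard error 0.035; limma, adjusted p = 0.00328), again a step that missed the threshold without the trend (adjusted p = 0.0762). Tubb3, Tubb5 and Tubb2a thus stood close together in the same order in both libraries, and whether the steps passed the test depended on how the spread is estimated.

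Tubb2b (ENSMUSG00000045136; chromosome 13, 34126748 to 34130466, minus strand), required for neuronal migration, stood at 806 and 781 TPM, or 13.5% and 13.9% of beta TPM. Its neighbour Tubb2a, within a stretch of 56.2 kb, lay 1.68-fold above it (limma, adjusted p = 1.52e-06). The pair together held 36.7% ± 0.12 of beta TPM.

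Tubb4b (ENSMUSG00000036752; chromosome 2, 25222160 to 25224702, minus strand), a widely expressed isotype that is also prominent in cilia, stood at 296 and 307 TPM, or 4.96% and 5.48% of beta TPM. It lay 2.63-fold below Tubb2b (limma, adjusted p = 8.90e-08). Tubb4a (ENSMUSG00000062591; chromosome 17, 57080066 to 57087782, minus strand), known from mature brain and oligodendrocytes, stood at 263 and 240 TPM, or 4.40% and 4.29%. The last step of the order was 1.20-fold (log2 0.26, standard error 0.096; limma, adjusted p = 0.00632), with 0.17 in replicate 1 and 0.35 in replicate 2.

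**Figure D2:**
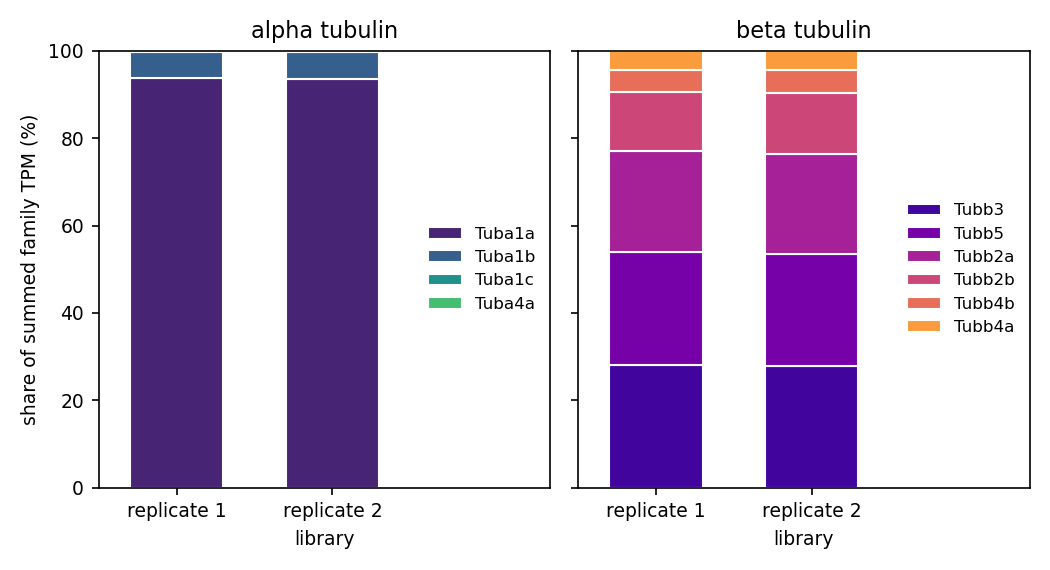
Share of summed family TPM (percent) held by each isotype in each library, stacked by mean level, for alpha tubulin (left) and beta tubulin (right). Tuba1a fills 93.8% and 93.5% of the alpha bars, Tuba1c and Tuba4a are too small to see, and the 6 beta segments have nearly the same height in both libraries.

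All 8 steps between neighbours passed an adjusted p of 0.05 (limma on log2(TPM + 0.1), fitted over all genes with at least 1 TPM in both libraries). In these fits 99.1% of all gene-to-isotype comparisons passed, so a pass says only that a step exceeded the spread between the libraries. The sizes of the steps ran from 1.09-fold to 32.1-fold.

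Alpha RNA exceeded beta RNA, although the proteins assemble in equal numbers. Summed alpha TPM was 15327 in replicate 1 and 14786 in replicate 2, and summed beta TPM 5978 and 5596. The alpha sum was 2.56 and 2.64 times the beta sum. Tuba1a alone was 2.44 ± 0.046 times the whole beta family, and the other 3 alpha isotypes together were 0.166 ± 0.0089 times it. Of the TPM on all genes, 2.25% belonged to the 10 isotypes in both replicates.

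The excess of alpha RNA and the order of the beta genes depend in part on transcript length. Counted as reads without division by length, alpha exceeded beta by 2.08-fold and 2.14-fold. Tubb5, whose leading transcript is 2649 bases long against 1868 for Tubb3, then took the largest share of beta reads (34.1% ± 0.26, against 26.0% ± 0.13 for Tubb3). Tubb4a likewise passed Tubb4b in reads, with 4.86% against 4.09%. Tuba1a kept 93.3% of alpha reads.

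Isotypes with shared sequence compete for reads. The deposited effective lengths are 99 bases under the transcript length, so windows of 100 bases of each coding transcript, from GENCODE M21, were searched in all other genes of the tables on both strands. In Tubb3, Tubb5 and Tubb4a no window (0 of 1769, 2550 and 2129) occurred in another gene. The deposited posterior SD of their reads, the error of read assignment, was 0 in both libraries. Gm20388, a gene model that spans Tubb3 on the same strand, was given 769 and 520 reads.

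The Tuba1 genes shared most. Of the windows of Tuba1b 65.6% occurred elsewhere, of Tuba1c 53.4% and of Tuba1a 852 of 1704, in each other, in 6 processed pseudogenes and, for Tuba1a and Tuba1b, in a few windows of Slc7a11. The pseudogene with the most reads, Gm14150, was given 717 reads in replicate 1 and 670 in replicate 2, against 443627 and 569415 for Tuba1a. The posterior SD was 0.023% and 0.020% of the reads of Tuba1a and 0.37% and 0.29% for Tuba1b. It rose to 3.16% and 2.86% for Tuba1c, which had only 1076 and 1456 reads.

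Tubb2a and Tubb2b shared 543 windows, 35.9% of the first and 26.1% of the second, and their posterior SDs were 0.22% to 0.35%. Tubb4b shared 30.6% of windows, mostly with the pseudogene Tubb4b-ps1, which was given 21.65 and 14.03 reads. Tuba4a shared 46.7% of windows with Stk16, which overlaps it on the opposite strand. No source used here says whether reads were counted by strand, and Stk16 was given 2516 and 3471 reads against 94.34 and 182.74 for Tuba4a. The level of Tuba4a is therefore uncertain beyond its posterior SD of 6.94% and 4.92%.

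**Figure D3:**
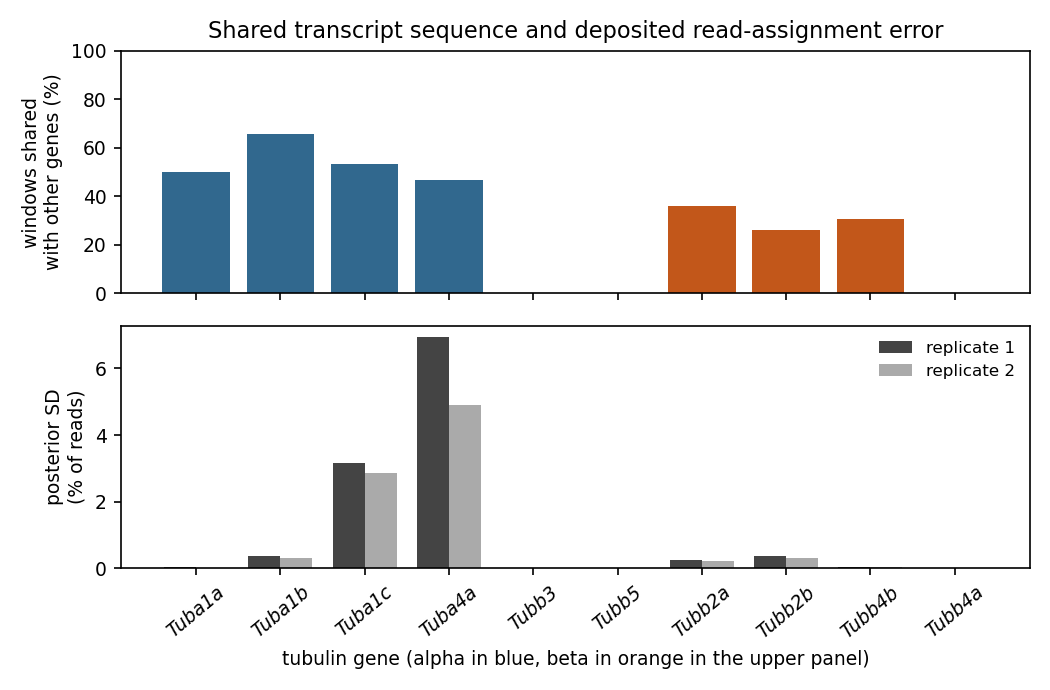
Upper panel: percent of windows of 100 bases of each isotype's coding transcript that also occur in another gene of the tables, on either strand. Lower panel: deposited posterior SD of the read count as percent of the reads, with replicate 1 in dark and replicate 2 in light grey; it is 0 for Tubb3, Tubb5 and Tubb4a and highest for Tuba4a (6.94% and 4.92%).

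Almost all TPM of each abundant isotype fell on 1 annotated transcript. By the deposited percent, a share of the gene's TPM and not of its reads, the leading transcript took 99.02% ± 0.085 of Tuba1a, 97.0% ± 0.035 of Tuba1b, 98.3% ± 0.13 of Tubb5 and 99.1% ± 0.22 of Tubb4b. Tuba1c, Tubb2a, Tubb2b, Tubb3 and Tubb4a had a single transcript in the tables, so their share is 100% by construction. Tuba4a was split over 8 transcripts, of which 2 were at 0 in both libraries. ENSMUST00000188593 took the largest share of its TPM, 32.8% ± 0.32, with 23.1 and 40.12 reads. By reads the longer ENSMUST00000079464 was higher, with 30.06 and 66.43. ENSMUST00000186971 took 18.5% of TPM in replicate 1, from 8.84 reads, and 0% in replicate 2. With so few reads these shares of Tuba4a describe little more than the assignment.

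Most tubulin isotypes differed little in level between the libraries. After scaling of reads by TMM, 1 of the 10 isotypes differed at least 1.5-fold between replicates, against 3.36% of all 14366 genes whose count averaged 50 or more. There is 1 library on each side and so no test. The exact (Clopper-Pearson) 95% intervals given here cover counting error only. That isotype was Tuba4a, 1.51-fold higher in replicate 2 (1.17 to 1.95), at the edge of the rule. It had the fewest reads of the 10, and the next largest difference was that of Tubb4b.

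Among the other 9, ratios of replicate 2 to replicate 1 ran from 0.942 for Tubb4a to 1.07 for Tubb4b. Tubb3 (0.959, interval 0.948 to 0.969), Tubb5 (0.955, 0.946 to 0.964) and Tubb2a (0.955, 0.942 to 0.967) were slightly lower in replicate 2. Tuba1a stood at 0.993 (0.990 to 0.997) and Tubb2b at 1.00 (0.985 to 1.02). The counting intervals of 2 of the 10 isotypes spanned 1, so the others differed beyond counting error, by small amounts except in Tuba4a. The median absolute log2 ratio was 0.066 over the 10 isotypes and 0.10 over all 14366 genes. This background was not matched to the isotypes for read depth, so it does not place them against genes of similar depth. In TPM, replicate 2 differed from replicate 1 by -7.17% for Tubb3, -7.63% for Tubb5 and -7.56% for Tubb2a. Spike-in RNA took 9.39% of TPM there against 5.36% in replicate 1, which lowers every gene's TPM, while shares within a family do not depend on it.

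All 7 listed neuronal markers were detected, with a summed level of 2527 TPM in replicate 1 and 2301 in replicate 2 and a median ratio of 0.958. All 5 progenitor markers were detected, with 2080 and 1981 TPM and a median ratio of 1.00. Single neuronal markers ran from 0.845 to 1.07 and progenitor markers from 0.925 to 1.21. Most other classes were higher in replicate 2. The 2 meningeal markers summed to 160 and 202 TPM (median ratio 1.33). The 3 midbrain markers summed to 116 and 133 TPM (median ratio 1.33). Median ratios were also above 1 for dividing (1.02), astrocyte (1.30), erythroid (1.15), endothelial (1.09), microglial (1.01), multiciliated (1.99) and megakaryocyte (1.51) markers. The oligodendrocyte list was lower (0.863). The part of cell composition in the tubulin ratios was not tested. In bulk RNA, fewer cells of a type and less RNA per cell cannot be told apart.

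**Figure D4:**
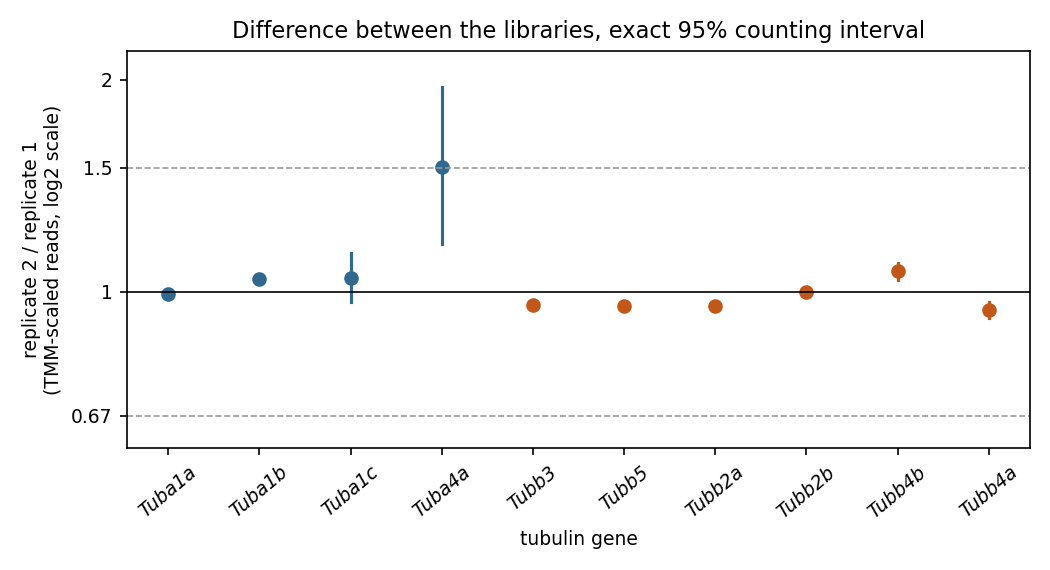
Ratio of TMM-scaled reads in replicate 2 to replicate 1 for each isotype on a log2 scale, with exact 95% counting intervals as lines; dashed lines mark 1.5-fold in either direction. Tuba4a lies at 1.51 with the widest interval, and the other 9 lie between 0.942 and 1.07.

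Other alpha and beta tubulin genes added little. Of 6 further protein-coding genes with such symbols, Tubb6 reached 26.9 TPM in replicate 1 and 26.5 in replicate 2. Tubb1, the isotype of platelets and their precursors, reached 0.80 and 1.20 TPM, beside the megakaryocyte marker Itga2b at 4.00 and 4.76. Tuba8 stood at 0.16 and 0.12, Tuba3a at 0 and 0.08, and Tuba3b and Tubal3 were listed at 0 in both. Gamma tubulin, which nucleates microtubules, was present as Tubg1 (72.2 ± 1.41 TPM) and Tubg2 (24.6 ± 1.85), and the centriolar tubulins Tube1 and Tubd1 were lower (6.53 ± 0.40 and 5.63 ± 0.81).

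The genes that fold, modify and sense tubulin, and the gamma and centriolar tubulins, were present nearly throughout. Of these 43 genes in 8 lists, 42 reached 1 TPM in both libraries. Of all 43346 genes, 15433 did so in replicate 1 and 15421 in replicate 2. Among the 42 list genes whose count averaged 50 or more, 0 reached 1.5-fold between the libraries (3.36% of all genes with such a count did). With 1 library on each side these counts carry no test.

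All 8 subunits of the cytosolic chaperonin, which folds newly made tubulin, were detected, from 206 ± 10.7 TPM (Cct2) to 434 ± 5.15 (Cct3), with Cct5 at 432 ± 25.6 and Cct8 at 402 ± 23.6. The prefoldin list, whose products hand unfolded chains to the chaperonin, ran from 91.4 ± 5.25 (Pfdn1) to 377 ± 11.2 (Pfdn5), with Vbp1 at 260 ± 30.2 and Pfdn6 at 144 ± 4.75. Among the cofactors that assemble the heterodimer, Tbcb (291 ± 7.95) and Tbca (222 ± 11.0) led, Tbce stood at 87.6 ± 9.92 and Tbcc was lowest (32.5 ± 2.63). Each gene of these lists lay far below Tuba1a.

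The enzymes that act on the tails differed in level. Of the tyrosine cycle, Ttl, the ligase that restores the last tyrosine, stood at 18.0 ± 1.88 TPM. The carboxypeptidases that remove it, Vash2 and Vash1, stood at 61.9 ± 2.21 and 28.7 ± 4.30, and their partner Svbp at 184.5 ± 0.12. Among the 11 genes listed under glutamylation and glycylation, not all of which need have such an activity, Ttll1 led with 83.4 ± 5.63. Its product is a subunit of a polyglutamylase complex. Ttll12 stood at 44.5 ± 1.46 and Agtpbp1, which shortens glutamate chains, at 36.1 ± 3.40. Ttll6 was near 0 (0.03 and 0.04 TPM) and was the 1 gene under 1 TPM.

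Atat1, the acetyltransferase of alpha tubulin, stood at 368 ± 7.62 TPM, above the deacetylases Sirt2 (83.0 ± 0.76) and Hdac6 (62.2 ± 3.14). Ttc5, the factor that recognises the first residues of nascent tubulin, stood at 99.1 TPM in replicate 1 and 88.5 in replicate 2.

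**Figure D5:**
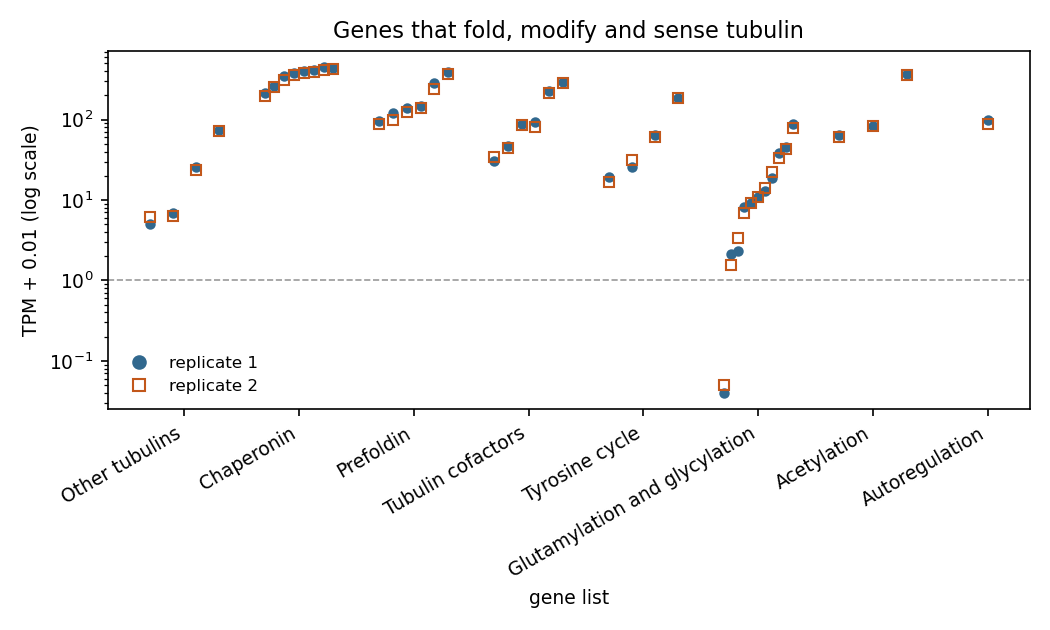
TPM + 0.01 on a log scale of each gene in the 8 lists of genes that fold, modify or sense tubulin or encode other tubulins, with replicate 1 as filled circles and replicate 2 as open squares; the dashed line marks 1 TPM. The chaperonin genes lie highest as a list, and Ttll6 is the only gene under the line.

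The libraries held 32151659 and 41915240 estimated reads, and 228482 to 611082 of them fell on each tubulin family. The labelled tissue was checked against markers of midbrain and hindbrain only. No forebrain class was listed, so carry-over of forebrain tissue was not tested. The midbrain genes Otx2 (111 ± 8.97 TPM), En1 (7.35 and 10.62) and Pax7 (4.04 and 5.05) were detected in both libraries. None (0) of 3 hindbrain Hox genes reached 1 TPM, a count with no test. The tubulin sums are those of a mixed tissue. The highest markers were Gap43 for neurons (748 TPM), Fabp7 for progenitors (1072), Cdk1 for dividing cells (131), Cldn5 for endothelium (51.0), Csf1r for microglia (8.61), Col3a1 for meninges (133) and Hba-a2 for red cells (4867). Among glial genes, Mbp of oligodendrocytes stood at 12.04 TPM and Aldh1l1 of astrocytes at 23.8, while the astrocyte gene Gfap was listed at 0 and 0.01. Foxj1, a factor of multiciliated cells, stood at 5.04 and 9.71, a 1.99-fold difference (1.72 to 2.31). Tubb4b was 1.07-fold higher in replicate 2, where 5 isotypes were higher and 5 lower. A relation of Tubb4b to Foxj1 was not tested.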

How the data were processed

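Total RNA of 2 midbrain libraries was quantified by the authors on mm10 with GENCODE M4, per text files deposited beside the tables. The column names are those of RSEM. No source used here names the aligner, the versions or the filters. The deposited expected counts are estimated reads that need not be whole, and were rounded for ratios. The deposited TPM values are scaled per length to the same total, which includes the spike-ins. FPKM is a deposited column, per the file headers, and was used as an alternative. The percent deposited for a transcript is its share of its gene. The deposited posterior SD was taken as the error of read assignment.

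Symbols and GRCm38 positions came from GENCODE M21 by Ensembl identifier. Neighbouring isotypes, ordered by mean TPM, were compared inside each library on log2(TPM + 0.1), with 1 limma 3.58.1 fit per higher isotype over all genes at 1 TPM or more in both libraries, a trend of the spread over level, two-sided tests and Benjamini-Hochberg adjustment over all 119016 comparisons. Ratios used TMM (edgeR 4.0.16, R 4.3.3). The fit was also run on simulated data, but the outcome is not reported here and no statement rests on it. Sequence identity is from global alignment (Biopython 1.88). Protein sequences were not used here, and the coding ends of 3 alpha isotypes are not reported here.

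The 10 members and all lists were chosen with earlier results of these data known. The text names all members, the 3 highest and the lowest gene of each list, list genes past 1.5-fold, the highest marker of each class and further Tuba or Tubb genes with a mean of 1 TPM. Others (Tuba8, Tuba3a, Tuba3b, Tubal3, Gfap, En1, Pax7 and genes that overlap or share sequence with a member) were named after their values were seen. Alternatives were other pseudocounts, FPKM, posterior mean TPM, all genes above 0, no trend, reads without length, all Tuba and Tubb genes in the sums, DESeq2 1.42.0 size factors, read totals, other thresholds and each library alone. Lengths of 1 GENCODE M21 coding transcript per gene, the one with the longest coding sequence, were added after seeing the data.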

Additional observations from a re-analysis of the deposited data

How the results depend on the processing

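Direction was kept for all 8 neighbouring pairs under all 6 alternative fits and in each library alone. Of these fits, other pseudocounts, all genes above 0, no trend and FPKM cannot reverse an order that both libraries share. Only posterior mean TPM could have reversed it. Reads not divided by length, which are outside these fits, placed Tubb5 above Tubb3 and Tubb4a above Tubb4b. The calls of Tubb3 over Tubb5 (log2 0.12, adjusted p = 0.153) and Tubb5 over Tubb2a (log2 0.16, adjusted p = 0.0762) were lost in limma's fit without a trend, which uses 1 spread for all levels. Each library alone leaves no residual degrees of freedom, so it gives a direction and no test.

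Reads not divided by length moved the alpha to beta ratio to 2.11 and the shares to 93.3% for Tuba1a, 6.41% for Tuba1b, 0.232% for Tuba1c, 17.9% for Tubb2a, 13.1% for Tubb2b, 26.0% for Tubb3, 4.86% for Tubb4a, 4.09% for Tubb4b and 34.1% for Tubb5. By construction this favours long transcripts. With the length of 1 GENCODE M21 coding transcript per gene the ratio was 2.42. The alpha shares were 93.1% for Tuba1a, 6.63% for Tuba1b, 0.210% for Tuba1c and 0.0154% for Tuba4a. The beta shares that moved were 12.3% for Tubb2b, 28.7% for Tubb3, 4.46% for Tubb4a and 26.1% for Tubb5. For Tuba4a the shift reflects the transcript chosen, which has the same length in both annotations. Posterior mean TPM moved Tuba4a to 0.0306%. FPKM is proportional to TPM within a library, so by construction it moved none of the shares.

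The share of genes at 1.5-fold between the libraries (3.36%) became 29.1% with no minimum count, 0.738% at 2-fold and 11.9% at a lower fold, as the rule itself sets. At 2-fold 0 isotypes passed; there is no test and so no p. Scaling by read totals turned the ratio of Tuba1a to 0.0048 on the log2 scale, a difference near 0 either way. Depth limits Tuba4a and Tuba1c most.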
